A study of Mus musculus with 6 samples.

Results

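The 10 genes described here encode transcription factors and cofactors by which blood progenitors become granulocytes, monocytes or dendritic cells: Spi1, Cebpa, Cebpb, Cebpd, Cebpe, Cebpg, Gfi1, Irf8, Id2 and Zeb2. They were taken from a list of symbols, not from their values, and all 10 were found among the 20097 genes listed in the files and among the 15410 genes tested. RNA came from mouse bone marrow cells carrying the receptor c-Kit, a fraction rich in stem and progenitor cells. The WT group had 3 libraries of the genotype labelled WT, and the other group had 3 of the genotype labelled Runx1 KO, a knockout of the gene for the transcription factor RUNX1. The labels give no age, sex or strain, no promoter or Cre line by which Runx1 was disrupted, and no treatment, and they do not say whether a library came from 1 animal or from several, so p-values measure only the spread between these libraries.

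PU.1, the product of Spi1, and C/EBPα, the product of Cebpa, are needed early to open the granulocyte and monocyte programme. The later choice is commonly described as an opposition of GFI1, a repressor that favours granulocytes, and IRF8, an activator that favours monocytes and dendritic cells, and C/EBPε acts late, as neutrophils make their secondary granules. RUNX1 binds regulatory elements of several of these genes, Spi1 and Gfi1 among them.

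Values are normalised read counts: the reads of a gene after scaling each library by its own size factor. The libraries held between 23297526 and 26793380 recovered reads, and the lowest count of any member in a library was 123 reads, so every member was well above the floor of 3 reads. The targeted gene was not lower under its label: Runx1 had 3031, 2799 and 3497 normalised reads in those labelled WT and 6648, 6720 and 5830 in those labelled Runx1 KO (log2 change 1.04, limma adjusted p 0.00163). A count over the whole gene cannot show a missing exon. Directions below therefore rest on the labels. The library labelled Runx1 KO replicate 1 stood apart from the other 2 of its group: on the first principal component, which held 69.2% of the variance, it scored 22.82 against 64.51 and 60.78, with the libraries labelled WT between -64.98 and -39.82. Kit, the gene of the sorting marker, rose with 4 of the 5 other stem and progenitor markers listed. Over all genes tested, 10.6% passed an adjusted p of 0.05 upwards in limma and 11.3% downwards. No listed marker of another cell type was at 0 in all libraries. The summed markers ran from 16640 to 19160 normalised reads under WT and from 24860 to 27980 under Runx1 KO for stem and progenitor cells, from 214000 to 265300 and from 105200 to 144200 for neutrophils, from 40060 to 50440 and from 38970 to 50900 for monocytes, from 6614 to 26930 and from 953.8 to 2594 for B cells, from 6511 to 9346 and from 2182 to 3767 for mast cells and basophils, from 13930 to 20740 and from 7410 to 11430 for eosinophils, and from 679.1 to 714.6 and from 127.3 to 534.5 for dendritic cells. The monocyte sum joins opposite changes, since of its 4 markers 1 passed upwards and 1 downwards. F13a1 had 13440 to 18270 normalised reads under WT and 23940 to 28910 under Runx1 KO, and Ly6c2 12240 to 16100 and 5199 to 7263. In bulk RNA of this kind, fewer cells of a type and less RNA per cell cannot be told apart.

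Of the 10 fate factors, 3 fell and 1 rose in the libraries labelled Runx1 KO, and 6 did not pass an adjusted p of 0.05 in limma. Id2 and Cebpe fell most, Spi1 fell slightly, and Cebpd rose slightly. Across all tested genes 21.9% passed, 10.6% upwards and 11.3% downwards, beside 4 of 10 members. With scaling to library totals the split of all called genes moved from 1631 higher of 3370 to 2386 higher of 3758, and Id2, Cebpe and Spi1 still had negative changes and Cebpd a positive one. In 6 of the 10 the values of the groups did not overlap, which was so for 43.3% of all tested genes. The median log2 change of the 10 was -0.05, against -0.0042 over all genes tested. Id2 and Cebpe were called in each of the 6 fits without 1 library. The count of called members was 4 without WT replicate 1, 5 without replicate 1 labelled Runx1 KO and 2 without any of the other 4.

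**Figure D1:**
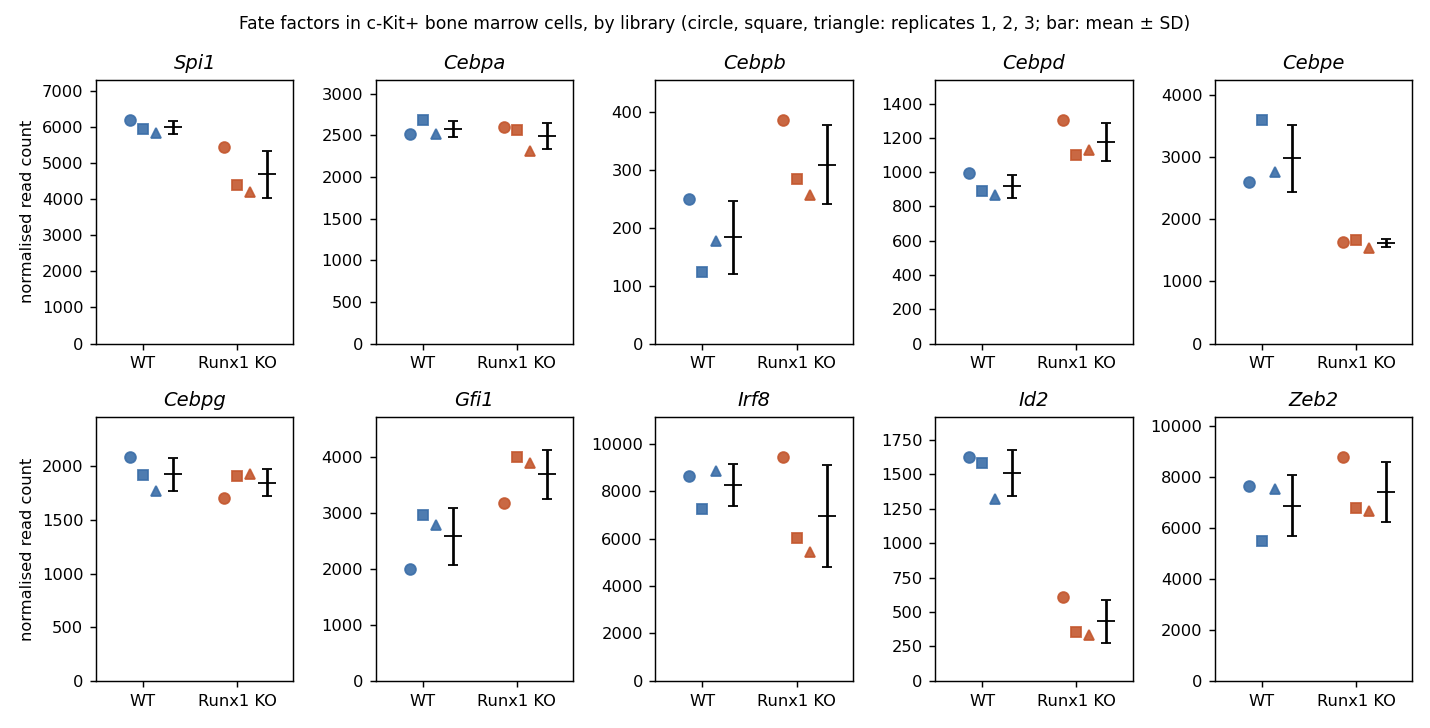
Normalised read count (y axis, from 0) of each fate factor in every library, by group (x axis), with replicates 1, 2 and 3 as circle, square and triangle and the mean ± SD beside them. Id2 and Cebpe under Runx1 KO lie well below every WT library, whereas Cebpa, Cebpg, Irf8 and Zeb2 overlap between the groups.

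**Figure D2:**
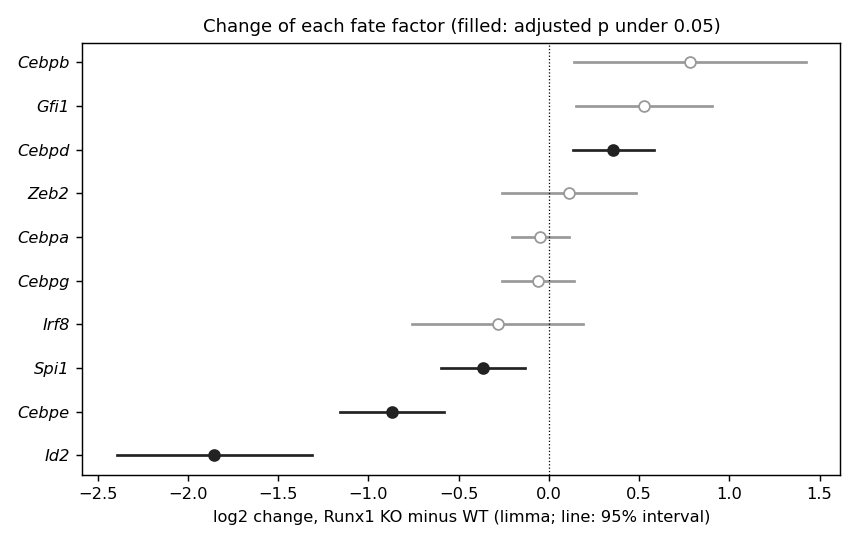
Log2 change of each member from WT to Runx1 KO (x axis, limma), with its 95% interval as a line; filled points have an adjusted p under 0.05. Id2 has the largest fall, -1.85, and the intervals of Cebpa, Cebpg, Irf8 and Zeb2 include 0.

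Spi1 encodes PU.1, the ETS-family factor whose dose steers progenitors towards macrophages, granulocytes or B cells. Spi1 (ENSMUSG00000002111; GRCm38 chromosome 2, 91082390 to 91115756, plus strand, protein coding) had 6185, 5943 and 5828 normalised reads in the WT libraries and 5432, 4396 and 4204 in those labelled Runx1 KO. The groups did not overlap, and replicate 1 labelled Runx1 KO lay closest to WT. The fall was a log2 change of -0.36 (SE 0.10, limma adjusted p 0.0403), from a mean of 5986 ± 182 to 4677 ± 661 (SD, n = 3). This call was lost in edgeR (adjusted p 0.0518) and when scaled to library totals (0.0746), and without any 1 library other than replicate 1 labelled Runx1 KO (limma adjusted p from 0.0816 to 0.14). Without that replicate the log2 change was -0.48 (limma adjusted p 0.00468). B cells also use PU.1, and their summed markers were lower under Runx1 KO, as given above. So were those of neutrophils, mast cells and basophils, eosinophils and dendritic cells. Within the WT group the B-cell sum ran from 6614 to 26930, while Spi1 ran from 5828 to 6185. The part of any of these cells in the fall was not tested.

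The 5 C/EBP genes encode leucine zipper factors that bind the same DNA element as homodimers or heterodimers, and they did not move together. Cebpa, whose product starts the granulocyte and monocyte programme, had 2518, 2686 and 2520 normalised reads in the WT libraries and 2598, 2565 and 2317 in those labelled Runx1 KO. Its values overlapped, and its log2 change was -0.05 with a 95% interval from -0.20 to 0.11 (limma adjusted p 0.642). Cebpa (ENSMUSG00000034957; chromosome 7, 35119293 to 35121928, plus strand) is a gene of 1 exon block in the annotation.

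Cebpe encodes C/EBPε, which acts in maturing neutrophils and eosinophils and drives secondary granule genes. Cebpe (ENSMUSG00000052435; chromosome 14, 54710360 to 54712174, minus strand) had 2595, 3598 and 2757 normalised reads under WT and 1633, 1666 and 1544 under Runx1 KO. Every library labelled Runx1 KO was lower than every one labelled WT, and the former were close to one another. The mean fell from 2983 ± 539 to 1614 ± 63.4 (SD, n = 3), a log2 change of -0.87 (SE 0.12, limma adjusted p 0.00488). It was called under all 9 settings that kept every library, with log2 changes between -0.89 and -0.79. Most neutrophil and eosinophil markers moved in the same direction: 5 of 6 neutrophil markers passed downwards, and of 5 eosinophil markers 3 passed downwards and 1 upwards. Across all genes tested, 11.3% passed downwards and 10.6% upwards. The part of neutrophils and eosinophils in the fall was not tested.

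Cebpd, which is induced by inflammatory signals and in maturing myeloid cells, had 996, 890 and 867 normalised reads under WT and 1305, 1098 and 1128 under Runx1 KO. The groups did not overlap. Cebpd (ENSMUSG00000071637; chromosome 16, 15887286 to 15891031, plus strand) rose by a log2 change of 0.36 (SE 0.09, limma adjusted p 0.0371), and it was called under all 9 settings with every library but, with 1 library left out, only without WT replicate 1 (limma adjusted p 0.036, against 0.0673 to 0.1 in the other 5 fits). It shares 562 of its 3746 exon bases with Spidr on the other strand. Spidr had 1420 ± 71 and 1466 ± 38.7 normalised reads (SD, n = 3), with a log2 change of 0.05 (limma adjusted p 0.633).

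Cebpb, which drives granulocyte production in emergencies such as infection, had the fewest reads of the 10 members, with 249, 124 and 177 normalised reads in the WT libraries and 386, 284 and 257 in those labelled Runx1 KO, so that the lowest of the latter was just above the highest of the former. The log2 change of Cebpb (ENSMUSG00000056501; chromosome 2, 167688915 to 167690418, plus strand) was 0.78 (SE 0.27, 95% interval 0.14 to 1.43) and did not pass (limma adjusted p 0.0809, without WT replicate 1 0.0354, DESeq2 0.048). It shares 312 of its 1504 exon bases with Tmem189 on the other strand, which fell from 1025 ± 63.3 to 843 ± 5.24 normalised reads (SD, n = 3; log2 change -0.28, limma adjusted p 0.0332). Whether the authors' counting used the strand is not given in the sources used here, so reads of the shared stretch cannot be assigned to either gene with certainty.

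Cebpg encodes a short family member without a classical activation domain, which pairs with the other C/EBPs. Cebpg (ENSMUSG00000056216; chromosome 7, 35046422 to 35056573, minus strand) had 2084, 1918 and 1773 normalised reads under WT and 1702, 1907 and 1928 under Runx1 KO. Its values overlapped, with a log2 change of -0.06 and a 95% interval from -0.26 to 0.14 (limma adjusted p 0.639).

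Within the family the make-up shifted. Per kilobase of exon, Cebpe supplied 54.3%, 63.3% and 57.8% of the C/EBP reads in the libraries labelled WT and 41%, 42.8% and 42.3% in those labelled Runx1 KO. Cebpa supplied 24.8%, 22.2% and 24.9% against 30.7%, 31% and 29.9%, Cebpd from 5.19% to 6.91% against 9.35% to 10.9%, and Cebpb from 1.8% to 4.31% against 5.81% to 8%. Cebpg overlapped between the groups, at 7.45% to 9.63% and 9.43% to 11.7%. The total over the 5 genes was 4090 ± 424 normalised reads per kilobase under WT and 3095 ± 141 under Runx1 KO (SD, n = 3), and because these are shares of that total, a lower Cebpe raises the other shares by itself.

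Gfi1 encodes a zinc finger repressor that recruits the demethylase LSD1 and histone deacetylases and holds back monocyte genes in granulocyte precursors. Gfi1 (ENSMUSG00000029275; chromosome 5, 107716657 to 107726036, minus strand) had 2009, 2964 and 2783 normalised reads in the WT libraries and 3187, 3998 and 3894 in those labelled Runx1 KO. The groups did not overlap, with replicate 1 the lowest in both. Gfi1 shares 101 of its 3187 exon bases with A430072P03Rik on the other strand, which had from 52.8 to 92.2 normalised reads in the 6 libraries. The log2 change was 0.53 (SE 0.16, 95% interval 0.15 to 0.90) and just missed the threshold (limma adjusted p 0.0543, edgeR 0.056), but it passed in DESeq2 (0.00775), when scaled to library totals (0.0365) and without replicate 1 labelled Runx1 KO (0.0391). Of the 5 genes for its corepressors, Kdm1a, Rcor1, Hdac1, Hdac2 and Ehmt2, 0 passed in limma, beside 21.9% of all genes tested. At an unadjusted limma p under 0.05 it was 0 of the 5 as well, beside 5810 of all 15410 genes tested. In edgeR and in DESeq2 0 of the 5 passed. Their log2 changes lay between -0.05 and 0.09.

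Irf8 encodes a factor that pairs with PU.1 and is required for monocyte and dendritic cell development. Irf8 (ENSMUSG00000041515; chromosome 8, 120736358 to 120756694, plus strand) had 8659, 7257 and 8861 normalised reads under WT and 9428, 6021 and 5426 under Runx1 KO. Replicate 1 labelled Runx1 KO was the highest of all 6 libraries, and the other 2 of its group were the lowest. With all libraries Irf8 did not pass (log2 change -0.28, SE 0.20, limma adjusted p 0.343), whereas without that library it was lower by a log2 change of -0.53 (limma adjusted p 0.0174). The plasmacytoid dendritic cell marker Siglech showed the same order among the libraries labelled Runx1 KO, with 331, 27.8 and 17.9 normalised reads for replicates 1 to 3. Unlike Irf8, it was lower in replicate 1 of that group than in every WT library (398 to 562). Of the other dendritic markers, Xcr1 had this order and Clec9a did not, at 116, 49.55 and 90.5. Of the monocyte markers, Ly6c2, Ccr2 and F13a1 had it and Csf1r did not, at 10380, 7173 and 7467. Clec9a and Csf1r differed only in the order of replicates 2 and 3, and replicate 1 was the highest of that group for them too. The part of dendritic cells or monocytes in the level of Irf8 was not tested.

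GFI1 and RUNX1 are both sequence-specific, so the 250 bases before each annotated start were searched in the RefSeq promoter table (GRCm38.p6), which held windows for 7 of the 10 members, 12 windows in all. Both strands were searched for TGTGGT or TGCGGT (RUNX), GAGGAA (PU.1), TTNCNNAA (C/EBP) and AAATCAC (GFI1). These letters occur in 18.6%, 23.3%, 36.8% and 2.75% of the 32851 windows of the table, and in 1, 4, 2 and 1 of the 12 member windows. The C/EBP and PU.1 matches were in Zeb2 (1 window with both, 3 others with PU.1 alone) and in Gfi1 (1 window with C/EBP). All PU.1 matches were thus in 1 gene, and 2 of its windows overlap. Their PU.1 letters, at -16 and -42 from their starts, are the same bases counted in both windows. Irf8 is shown because it is the member whose windows held the GFI1 and the RUNX letters, Cebpa as the member whose level moved least on the log2 scale, and Id2, the member that fell most, for the part of its window outside annotated exons. Sequences run 5′ to 3′ on the strand of the gene, and capitals mark a match.
Irf8, first start, chr8:120736108-120736357, plus strand, GFI1 letters on the opposite strand in capitals: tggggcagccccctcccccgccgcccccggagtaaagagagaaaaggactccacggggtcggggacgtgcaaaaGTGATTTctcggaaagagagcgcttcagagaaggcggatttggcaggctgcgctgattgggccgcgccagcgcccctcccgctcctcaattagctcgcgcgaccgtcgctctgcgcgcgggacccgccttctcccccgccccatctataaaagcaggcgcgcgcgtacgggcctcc
Irf8, second start, chr8:120738389-120738638, plus strand, RUNX letters on the opposite strand in capitals: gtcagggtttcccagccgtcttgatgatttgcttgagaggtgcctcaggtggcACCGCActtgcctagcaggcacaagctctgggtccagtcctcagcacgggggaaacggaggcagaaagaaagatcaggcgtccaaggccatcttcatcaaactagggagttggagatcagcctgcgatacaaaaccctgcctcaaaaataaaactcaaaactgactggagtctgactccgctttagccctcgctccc
Cebpa, chr7:35119043-35119292, plus strand, no match: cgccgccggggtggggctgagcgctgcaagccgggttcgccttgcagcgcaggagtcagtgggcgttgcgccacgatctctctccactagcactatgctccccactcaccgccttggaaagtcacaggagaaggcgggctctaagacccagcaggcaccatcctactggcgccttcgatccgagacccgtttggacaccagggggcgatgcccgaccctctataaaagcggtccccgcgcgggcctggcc
Id2, chr12:25096254-25096342, minus strand, no match: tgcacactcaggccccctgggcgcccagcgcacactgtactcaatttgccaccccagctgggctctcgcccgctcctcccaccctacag
The GFI1 letters of Irf8 begin at position -176 from its first start, and the RUNX letters at -197 from its second. A match is only a run of letters, and its absence says nothing about elements elsewhere, such as distal enhancers.

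Id2 encodes an inhibitor without a DNA-binding domain, which keeps E proteins from binding DNA and is used by conventional dendritic, innate lymphoid and natural killer cells. Id2 (ENSMUSG00000020644; chromosome 12, 25093799 to 25097140, minus strand) had 1623, 1585 and 1317 normalised reads in the WT libraries and 609, 355 and 330 in those labelled Runx1 KO. Replicate 1 labelled Runx1 KO lay between the other 2 of its group and WT, and the groups were far apart. The mean fell 3.5-fold, from 1509 ± 167 to 431 ± 154 (SD, n = 3), a log2 change of -1.85 (SE 0.23, limma adjusted p 0.00346). Over the 6 fits that left out a library the log2 change ran from -2.13 to -1.69, with limma adjusted p values up to 0.0188. Among markers of cells that use Id2, 1 of 3 natural killer markers passed downwards, beside 11.3% of all genes tested downwards and 21.9% in either direction. Of these only Nkg7 did not overlap between the groups, at 5450 to 6523 normalised reads under WT and 3750 to 4463 under Runx1 KO. Ncr1 and Klrb1c overlapped, at up to 108 normalised reads. Of 3 dendritic markers 0 passed in limma or in edgeR. Clec9a and Xcr1 had limma adjusted p values of 0.149 and 0.744. The 1 marker with an unadjusted p under 0.05 in limma was Siglech (adjusted p 0.0609), which marks plasmacytoid and not conventional dendritic cells. Separately, 5 of 6 mast cell and basophil markers passed downwards, beside the same 11.3% of all genes tested. The part of any of these cells in the fall was not tested.

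Zeb2 encodes a zinc finger repressor that in myeloid progenitors represses Id2 and favours plasmacytoid dendritic cells and monocytes. Zeb2 (ENSMUSG00000026872; chromosome 2, 44983632 to 45117395, minus strand) had 7617, 5484 and 7507 normalised reads under WT and 8759, 6787 and 6664 under Runx1 KO. The values overlapped, with a log2 change of 0.11 and a 95% interval from -0.26 to 0.48 (limma adjusted p 0.638).

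Levels can be set between genes only per length of exon. Per kilobase, the order under WT was Cebpe, Spi1, Irf8, Cebpa, Gfi1, Id2, Zeb2, Cebpg, Cebpd and Cebpb, from 2404 ± 434 to 122 ± 41.8 normalised reads (SD, n = 3). Among neighbours in that order, the libraries of Cebpe and Spi1, of Gfi1 and Id2 and of Zeb2 and Cebpg overlapped, and the others did not. Under Runx1 KO, Spi1 came first at 1736 ± 245 normalised reads per kilobase, followed by Cebpe at 1301 ± 51 and Gfi1 at 1159 ± 138, and Id2 moved from a place after Gfi1, at 619 ± 68.5, to the last, at 177 ± 63.3. There Spi1 and Cebpe, Cebpa and Zeb2, and Cebpd and Cebpb did not overlap, while the 6 other neighbouring pairs did. Irf8 and Zeb2 depend most on the length used, with unions of 7055 and 19942 exon bases against longest transcripts of 3469 and 9124. With the latter, Irf8 under Runx1 KO came after Spi1 only, at 2006 ± 622 (SD, n = 3), Id2, at 219 ± 78.3, was no longer last but above Cebpb, at 206 ± 45.3, and under WT only Cebpe and Spi1 changed places.

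**Figure D3:**
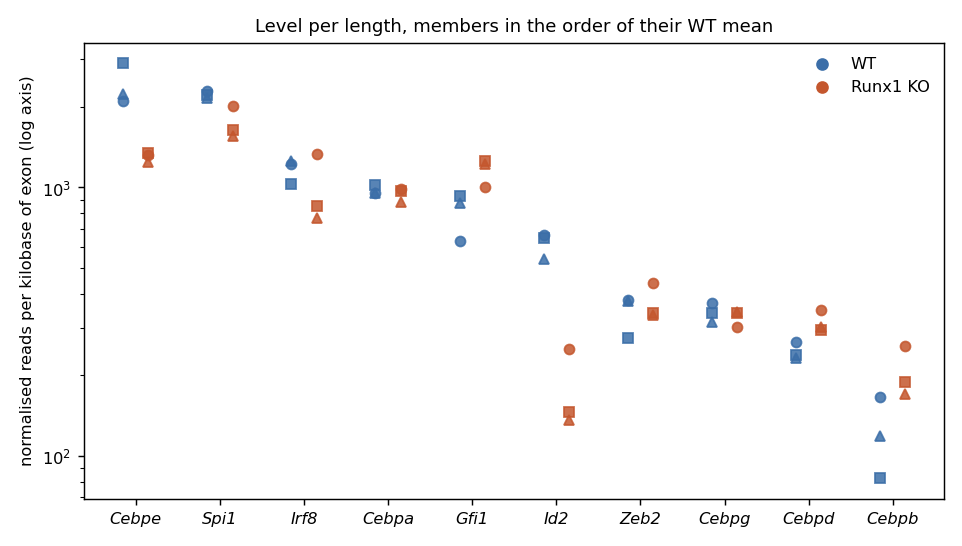
Normalised reads per kilobase of exon (y axis, log axis) for each member and library, members ordered by their WT mean, blue for WT and orange for Runx1 KO. By this length Id2 drops from the middle of the order to the lowest level (with the longest transcript, to just above Cebpb), and Gfi1 under Runx1 KO overlaps with Cebpe.

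The balance between opposed or successive factors was read within each library, as a difference of log2 values, and compared over libraries by an exact two-sided permutation test, adjusted over 5 differences. With 3 libraries in each group this exact permutation test cannot go below p = 0.1, so none of the 5 could pass. The values are not divided by length, so the change between groups can be read but not the sign: per kilobase, Cebpe was above Cebpa in all 6 libraries. Id2 minus Zeb2 was -2.23, -1.79 and -2.51 under WT and -3.84, -4.25 and -4.33 under Runx1 KO, lower in each of the latter (difference -1.97, exact permutation p = 0.1, adjusted 0.167). Cebpe minus Cebpa was lower in every library labelled Runx1 KO, at -0.67, -0.62 and -0.59 against 0.04, 0.42 and 0.13 (difference -0.82, exact permutation p = 0.1, adjusted 0.167). Cebpa minus Spi1 was higher in every library labelled Runx1 KO, at -1.06, -0.78 and -0.86 against -1.30, -1.15 and -1.21 (difference 0.32, exact permutation p = 0.1, adjusted 0.167). Gfi1 minus Irf8 overlapped, because replicate 1 labelled Runx1 KO, at -1.56, lay within the WT range of -2.11 to -1.29, while replicates 2 and 3 were at -0.59 and -0.48 (difference 0.81, exact permutation p = 0.2, adjusted 0.25). Cebpa minus Cebpg was 0.42 ± 0.13 under WT and 0.43 ± 0.17 under Runx1 KO (SD, n = 3; exact permutation p = 1, adjusted 1).

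**Figure D4:**
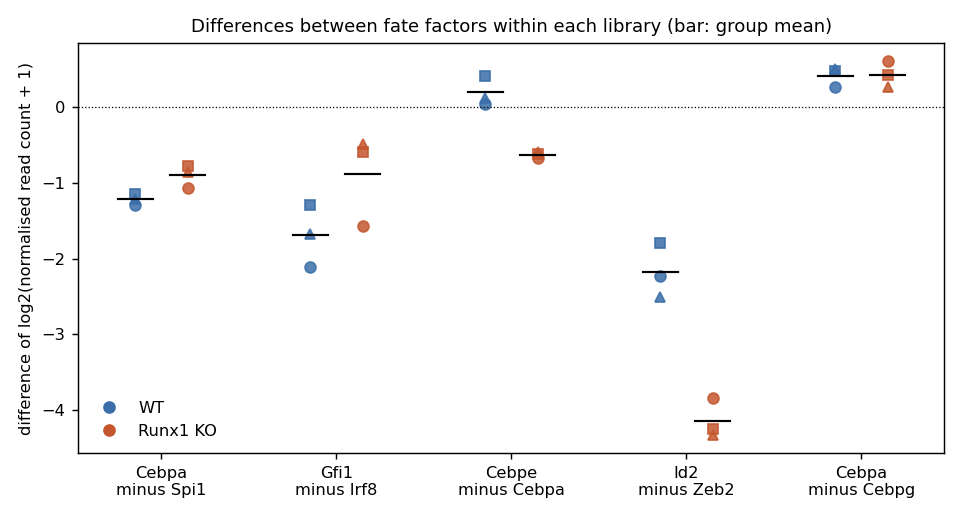
Difference of log2(normalised read count + 1) between 2 members within each library (y axis), blue for WT and orange for Runx1 KO, with group means as bars and replicates 1, 2 and 3 as circle, square and triangle. Cebpe minus Cebpa is lower in all libraries labelled Runx1 KO than in all WT libraries, and its position against 0 depends on the lengths of the genes. Gfi1 minus Irf8 overlaps because replicate 1 labelled Runx1 KO lies below WT replicate 2.

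Around these members, 35 partners of the same network were listed, and 12 (34.3%, beside 21.9% of all genes tested) passed in limma, 6 upwards and 6 downwards, with a median log2 change of -0.09. In edgeR 10 passed, without Id3 (adjusted p 0.0717) and Ikzf1 (0.051). The higher ones were Runx1 (log2 change 1.04), Gfi1b (1.11), the GFI1 relative of the erythroid and platelet lineages, Irf1 (0.60), Myb (0.53), Stat5b (0.43) and Stat5a (0.40), with limma adjusted p values up to 0.0342. The lower ones were Spib (-5.75), a PU.1 relative of B cells and plasmacytoid dendritic cells, Irf4 (-4.59), Klf4 (-2.47), which PU.1 activates in monocytes, Id3 (-2.20), Bcl6 (-1.31) and Ikzf1 (-0.30), with limma adjusted p values up to 0.0479. Spib had 6036, 1507 and 2646 normalised reads under WT and 196, 33.7 and 21.9 under Runx1 KO, and Irf4 5487, 703 and 1213 against 174, 34.7 and 52.7. Both vary among the WT libraries in the order of the B-cell gene Pax5, at 5967, 1304 and 2359; the part of B cells in these falls was not tested. Klf4, at 4778, 2180 and 2199 against 900, 353 and 426, did not overlap either, whereas Id3 did, at 190, 80.7 and 202 against 82.6, 17.8 and 19.9.

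Of 8 receptors for myeloid cytokines, 1 (12.5%, beside 21.9% of all genes tested) passed, Csf2ra, the α chain of the GM-CSF receptor. It fell from 2980, 2643 and 2533 to 2083, 1738 and 1613 normalised reads (log2 change -0.59, SE 0.11, limma adjusted p 0.0119), and of the 8 receptors 0 passed without replicate 2 labelled Runx1 KO and 2 without replicate 1 or replicate 3 of that group. The median over the 8 was 0.08, and Csf1r and Csf3r, the receptors of the monocyte and granulocyte growth factors, overlapped between the groups with log2 changes of -0.34 and -0.11 (limma adjusted p 0.176 and 0.751).

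Genes made by the cells these factors specify were listed as well. Of 19 granulocyte genes, 15 passed downwards and 0 upwards, with a median log2 change of -1.95. The largest falls were Itgb2l, an integrin chain of neutrophils (log2 change -6.03, SE 0.55, limma adjusted p 0.00153), and Ly6g (-3.13, SE 0.59, limma adjusted p 0.0126). The secondary granule genes Ltf, Camp, Ngp and Lcn2, named after their values were seen, had log2 changes between -2.64 and -2.42, while the granule proteases Mmp8 and Mmp9 overlapped between the groups and did not pass (log2 change -1.55 for both, limma adjusted p 0.2 and 0.135). For the primary granule genes Mpo, Elane, Prtn3 and Ctsg the log2 changes lay between -0.41 and -0.05, and Mpo and Ctsg did not pass (limma adjusted p 0.233 and 0.629). Ltf had 72800, 54260 and 46440 normalised reads under WT and 23250, 7105 and 6219 under Runx1 KO, so that replicate 1 labelled Runx1 KO was intermediate. The same was so for Camp, Ngp and Lcn2. It was not so for Fcnb, at 1589 there against 1935 and 1662, or for Cebpe, at 1633 against 1666 and 1544. Any link between Cebpe and these genes was not tested.

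Of 13 monocyte genes, 5 passed downwards and 1 upwards, with a median log2 change of -0.38. Cx3cr1 fell by 1.61 and Ly6c2 by 1.16 on the log2 scale, and F13a1, which encodes a coagulation factor chain and is made by monocytes and their progenitors, rose by 0.75 (limma adjusted p up to 0.0124 for the 3). Without replicate 1 labelled Runx1 KO 10 of the 13 passed, and without replicate 2 labelled Runx1 KO 3 did. Of 10 dendritic cell genes, 1 passed, Ccr7 (log2 change -4.32, limma adjusted p 0.0093), with a median of -0.80. An unadjusted limma p under 0.05 was found for 6 of the 10, beside 5810 of all 15410 genes tested. Without replicate 1 labelled Runx1 KO 5 of the 10 passed, without replicate 3 labelled Runx1 KO 3 did, and DESeq2 called 4. Percentages called over the lists were 78.9% for granulocyte, 46.2% for monocyte and 10% for dendritic genes, beside 21.9% for all genes tested.

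**Figure D5:**
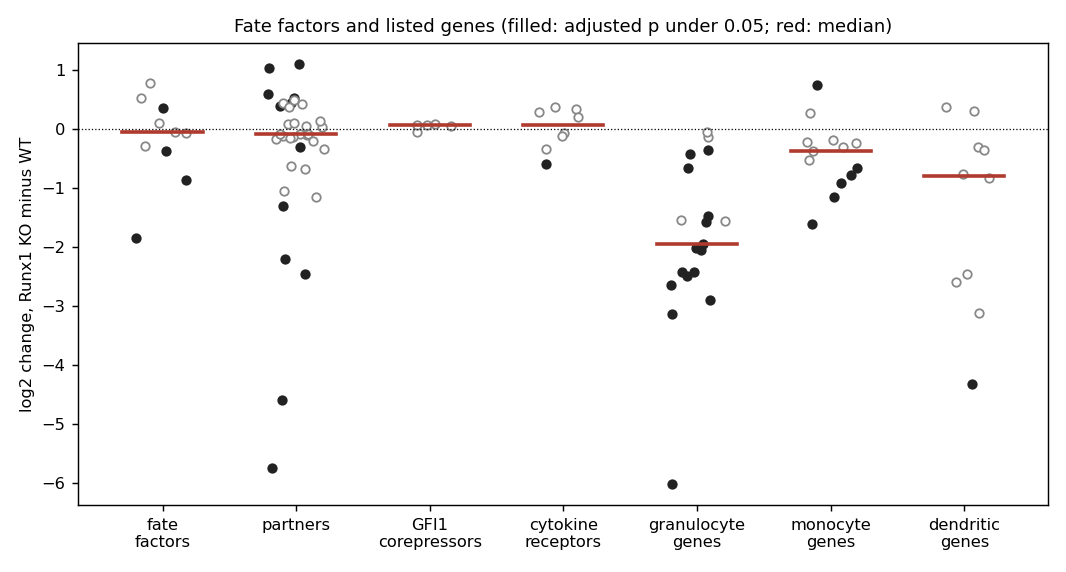
Log2 change from WT to Runx1 KO (y axis) of the 10 fate factors and of each listed gene around them, by list (x axis); filled points have a limma adjusted p under 0.05 and red bars are medians. The granulocyte genes lie lowest, with a median of -1.95, while the fate factors and their partners are centred near 0.

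The genes most like a member in their pattern over the 6 libraries, among 11199 other genes with a mean of at least 100 normalised reads, were ranked by Pearson's r. For Id2 these were Mxd3 (r = 0.9999), Gm12715 (0.9993) and Cyba (0.9991). Spi1 was followed by Orm1 (0.9995) and Ech1 (0.9979), and Cebpe by Ppp2r5d (0.9986), Cdc20 (0.9983) and Cops4 (0.9982). Cebpd was matched by Zfp277 (0.9962), Rab11fip5 (0.9923) and Mr1 (0.9901), and Gfi1 by Scrib (0.9955), Zwint (0.9926) and Rcl1 (0.9908). For Irf8, where replicate 1 labelled Runx1 KO was high, they were Gimap3 (0.987), Sp2 (0.985) and Cdkn1a (0.983), and for Cebpa, whose groups overlapped, Anxa3 (0.979), Paqr7 (0.968) and Slc38a10 (0.961). These are descriptions over 6 libraries that share a group difference, and among so many genes some reach a high r over so few points.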

How the data were processed

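Poly-A RNA of c-Kit-positive mouse bone marrow cells was sequenced from strand-specific libraries, per the labels' protocols. The submitters' processing notes list HISAT2, HTSeq 0.9.1 and the builds mm10 and GRCm38. The deposited values are a signal: read counts per gene that the authors divided by a size factor. This was worked out from the values, since 100% of them are whole multiples of the smallest positive value (tolerance 0.001) and the reciprocals of these steps, 0.956 to 1.04, equal the DESeq2 size factors of the multiples, called recovered reads. Annotation version, filters and the strand setting are not given in the sources used here.

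The main test was limma 3.58.1 (R 4.3.3; lmFit, eBayes with trend) on log2(value + 1), which understates changes of low genes, with 1 term for the group. Two-sided p-values were adjusted by Benjamini-Hochberg over the 15410 genes passing filterByExpr (minimum count 10, minimum total 15). The count tests, edgeR 4.0.16 and DESeq2 1.42.0, were run on recovered reads as alternatives. The fits were also run on simulated counts with the same spread setting for all genes and no library set apart. The real libraries differ from this, so the simulation checks the code and not the calls made here. Symbols were matched for 20077 of 20097 identifiers. Positions and exon lengths come from GENCODE M21 (GRCm38), and promoter windows from RefSeq (GRCm38.p6).

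The members, gene lists and tests were chosen with earlier results of these data known. By rule, the genes named were the 10 members, Runx1 and Kit, called partners, corepressors and receptors, the 2 largest called falls and rises of the other lists, and the 3 genes most like a member, of which 1 is not reported here. Overlapping neighbours, marker genes, the other corepressors and receptors, and the granule genes beyond that rule were named after their values were seen. The alternatives changed the test, scaling, pseudocount, filter, replicate block and libraries.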

Additional observations from a re-analysis of the deposited data

How the results depend on the processing

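Of 90 member log2 changes under the 9 alternatives that kept all libraries, 79 kept both direction and call, 2 lost the call, 7 gained it and 2 changed sign. The call was lost for Spi1, at -0.35 in edgeR and -0.28 with library totals. It was gained for Gfi1, at 0.51 in DESeq2 and 0.61 with library totals, and Cebpb, at 0.75 in DESeq2, beside those under the block below. Cebpa and Cebpg, neither called, reversed to 0.035 and 0.022 with library totals, a scaling that raises the median of all genes by 0.08. The cause of these shifts was not tested.

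With the replicate block, Gfi1 passed at 0.53 in limma (adjusted p 0.00462) and 0.54 in edgeR, and Cebpb at 0.78 in limma (adjusted p 0.0245) and 0.79 in edgeR; 3843 genes passed in limma, against 3370 without the block, and 3685 in edgeR, against 3261. Of the 8 cytokine receptors, 3 passed in limma and 2 in edgeR. The deviations of same-numbered libraries correlated at 0.287, 0.129 and -0.0104, so the numbers were not taken to pair the libraries. Neither WT replicate 2 nor replicate 3 correlated best with its own number.

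Leaving out a library in turn gave 1367 to 3597 called genes (632 to 1634 higher, 735 to 1963 lower) and 2 to 5 called members. The log2 change then ran from -0.48 to -0.29 for Spi1, from 0.53 to 1.03 for Cebpb, from 0.28 to 0.42 for Cebpd, from 0.36 to 0.64 for Gfi1, from -0.53 to -0.13 for Irf8, from -0.078 to 0.0046 for Cebpa and from -0.042 to 0.19 for Zeb2, and the difference of Cebpa minus Cebpg from -0.075 to 0.097. The count of called genes was 1367 without replicate 2 and 1767 without replicate 3 labelled Runx1 KO, 2208 without WT replicate 2, and highest without replicate 1 labelled Runx1 KO. By the longest transcript instead of the union of exons, 2 members under WT and 5 under Runx1 KO stood at another place in the order of levels. The precision is limited by the 3 libraries in each group, and every member had at least 123 reads in each.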
